A study of Mus musculus with 21 samples.

Results

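Tumour necrosis factor (Tnf), interleukin-1α (Il1a), interleukin-1β (Il1b), the interleukin-1 receptor antagonist (Il1rn), interleukin-6 (Il6), the chemokines Cxcl1 and Cxcl2, inducible nitric oxide synthase (Nos2) and cyclooxygenase-2 (Ptgs2) are described here in mouse liver cancer tumours under a kinase inhibitor and an immune checkpoint antibody. They were chosen by name, as 9 mediators of inflammation among the 19505 genes named on the array, and each was measured by 1 probe set. Expression was measured in 21 tumours, 1 per mouse, on Clariom S Mouse arrays. The tumours grew subcutaneously from Hepa1-6, an established mouse hepatoma line, in immunocompetent female C57BL/6J mice that were 5 to 6 weeks old at injection. Treatment began after randomisation at a tumour volume of 200 mm3.

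The placebo arm (6 mice) received drug vehicle and polyclonal IgG. The lenvatinib arm (5 mice) received 10 mg/kg of lenvatinib, an oral inhibitor of VEGF, FGF and related receptor kinases, every day. The anti-PD1 arm (5 mice) received the antibody clone J43 against PD-1, an inhibitory receptor of T cells, intraperitoneally at 10 mg/kg every 3 days for 5 doses. The combination arm (5 mice) received both agents. The labels do not say whether the mice given 1 agent also received the vehicle or IgG of the other. All tumours were collected on day 13, 2 h after the last lenvatinib and 1 day after the last antibody, so every value belongs to 1 time point. The model is 1 cell line grown under the skin and not in the liver. Pieces of 30 mg were used whole, so their RNA comes from tumour cells and host cells together, and fewer cells of a type cannot be told apart from less RNA per cell.

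Inflammatory mediators of this kind are made mainly by activated macrophages, monocytes and neutrophils, and also by stromal and tumour cells. Tnf, Il1a and Il1b act through receptors that switch on NF-κB, a transcription factor that in turn drives the genes of many mediators, including Il6, Cxcl1, Cxcl2, Nos2 and Ptgs2. Il1rn is the natural brake of the system, since its product occupies the interleukin-1 receptor without signalling. Cxcl1 and Cxcl2 attract neutrophils through Cxcr2, Nos2 makes nitric oxide from arginine, and Ptgs2 makes the precursor of prostaglandins.

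Cxcl1 and Cxcl2 are neighbours on chromosome 5 (RefSeq positions, GRCm38.p6), Cxcl1 at chr5:90891245-90893121 and Cxcl2 at chr5:90903899-90905938, with 10777 bases between them. Il1a (chr2:129299609-129310186) and Il1b (chr2:129364569-129371164) lie near each other on chromosome 2, where Il1rn (chr2:24336860-24351491) is farther away. Tnf is at chr17:35199367-35202007, Nos2 at chr11:78920787-78960226, Ptgs2 at chr1:150100031-150108234 and Il6 at chr5:30013114-30019975. RefSeq promoter sequences were matched for 8 of the 9 genes, all but Nos2, whose promoter was therefore not searched. The 150 bases before the start sites of Cxcl1 (chr5:90891095-90891244, plus strand), Cxcl2 (chr5:90903749-90903898, plus strand) and Il1b (chr2:129371140-129371289, minus strand) are shown because, across tumours, Il1b with Cxcl2 had the highest correlation of any pair of the 9 mediators (0.88) and the neighbours Cxcl1 with Cxcl2 had 1 near 0 (0.03). Capitals mark matches to a simplified κB motif, GGGA then any 4 bases then CC, on either strand; overlapping matches run together.
Cxcl1: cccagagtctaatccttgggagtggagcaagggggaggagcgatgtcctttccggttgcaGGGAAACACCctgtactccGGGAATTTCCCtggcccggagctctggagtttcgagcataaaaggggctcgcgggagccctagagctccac
Cxcl2: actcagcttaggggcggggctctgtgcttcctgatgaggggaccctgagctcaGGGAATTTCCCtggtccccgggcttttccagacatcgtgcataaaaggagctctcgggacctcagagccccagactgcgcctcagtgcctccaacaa
Il1b: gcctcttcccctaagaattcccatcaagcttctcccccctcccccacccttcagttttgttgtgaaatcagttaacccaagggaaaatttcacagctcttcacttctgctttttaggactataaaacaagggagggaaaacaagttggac

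The promoters of Cxcl1 and Cxcl2 both hold GGGAATTTCCC, a palindromic run that matches the motif on both strands, and Cxcl1 holds a further match. No match lies in the Il1b stretch shown. Within 250 bases before the start, matches were found for Cxcl1, Cxcl2, Il6 and Il1rn, for Il1rn only at the first of its start sites. Of the 32851 mouse promoters searched, 17.6% hold at least 1. A match is a description of letters only.

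The deposited log2 signals had array medians between 5.32 and 5.49. The median of the 5222 negative-control probe sets was 4.10, and their 95th percentile lay between 7.04 and 7.78 on each array. Every value of Tnf, Il1a, Il6, Ptgs2, Cxcl1 and Cxcl2 was below that percentile of its own array. Hepatocyte lineage markers were present in every tumour, their mean running from 5.28 to 8.42 over the 8 markers. The bacterial controls added before hybridization were bright on 6 arrays, at 11.33 or more (mouse 1 of the combination, mouse 1 of anti-PD1, mice 1 and 2 of lenvatinib, mice 4 and 6 of placebo), and were at most 10.91 on the other 15. Anti-PD1 mouse 2 had the highest adipocyte marker score of all tumours (3.45), with placebo tumours reaching 2.76. A score is the mean of the markers' log2 signals after each is centred over the 21 tumours. The skeletal muscle score of anti-PD1 mouse 2 (3.31) was high but below the highest placebo (4.28), lenvatinib (4.31) and combination (4.95) scores. Medians and counts over the mediators and gene lists are also given without this tumour or without the bright arrays where they moved most, a choice made after seeing the data.

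No mediator passed the test for a difference between arms after correction. In limma's moderated F test over the 4 arms, 0 of 9 passed an adjusted p of 0.05 (Benjamini-Hochberg over 22206 probe sets), and 0% of all probe sets passed. Tnf came nearest (unadjusted p = 0.014, adjusted p = 0.745), then Nos2 (unadjusted p = 0.0285, adjusted p = 0.822). Those 2 of 9 mediators lay below an unadjusted p of 0.05, beside 5.69% of all probe sets. The fraction of each gene's sum of squares that lay between arms was 42.1% for Tnf, 35.1% for Nos2, 30.9% for Il1rn and 26.1% for Il1a, and from 6.94% (Ptgs2) to 14.2% (Il6) for the other five. This fraction is above 0 even where treatment has no effect, and its spread over all probe sets was not computed.

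**Figure D1:**
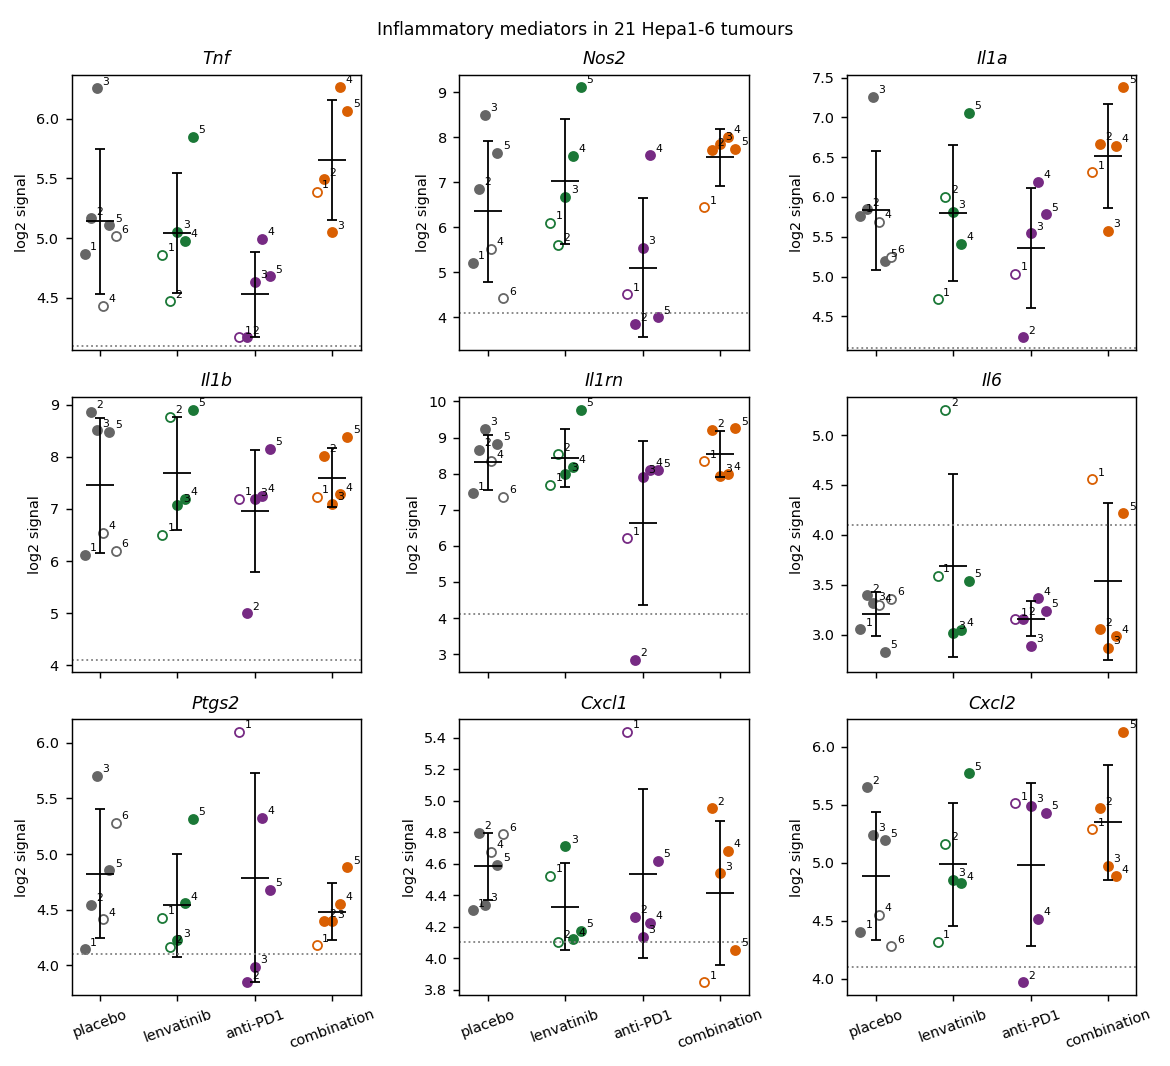
Log2 signal of each of the 9 mediators (1 panel each) in every tumour by arm, with the mouse number beside each point. Open points are the 6 arrays with bright hybridization controls, black bars are the arm mean ± SD, and the dotted line is the median of the negative controls, 4.10. The Tnf points of the combination arm all lie above those of the anti-PD1 arm, and most Il6 points lie under the dotted line.

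Tnf, the cytokine that starts many inflammatory cascades, was above the negative-control median on all 21 arrays. It was below the 95th percentile of those controls on all of them, so its signal lay inside their spread. In placebo tumours it ranged from 4.43 to 6.25 with a mean of 5.14 ± 0.60 (SD, n = 6). In the lenvatinib arm it read 4.86, 4.47, 5.05, 4.98 and 5.85 in mice 1 to 5. The anti-PD1 tumours read 4.17, 4.17, 4.64, 4.99 and 4.68. The combination tumours read 5.39, 5.49, 5.05, 6.26 and 6.06. The lowest combination tumour, mouse 3, stood just above the highest anti-PD1 tumour, mouse 4, so these arms did not overlap, while every other pair of arms did.

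The order of the arm means of Tnf was anti-PD1 (4.53 ± 0.36, n = 5), lenvatinib (5.04 ± 0.50, n = 5), placebo and combination (5.65 ± 0.50, n = 5). No step between neighbours in that order passed the test. Combination exceeded anti-PD1 by 1.12 ± 0.31 (log2, SE; 95% interval 0.48 to 1.76), or 2.17-fold, with limma's adjusted p = 0.174. Across all probe sets, 0.928% had no overlap between these 2 arms. Without anti-PD1 mouse 2 the difference was 1.03, and without the bright arrays it was 1.10.

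Nos2 varied more between tumours than nearly any other gene on the array. Its spread within arms was at percentile 98.8 of all probe sets. In placebo tumours it ran from 4.41 to 8.50, and the other placebo mice read 5.20, 6.85, 5.52 and 7.65. The lenvatinib tumours read 6.09, 5.60, 6.68, 7.59 and 9.12. Anti-PD1 tumours 1, 2, 3 and 5 read 4.51, 3.84, 5.55 and 3.99, whereas mouse 4 read 7.59. Combination tumours read 6.44, 7.71, 7.85, 8.004 and 7.74, the narrowest arm.

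By arm, Nos2 averaged 5.10 ± 1.55 under anti-PD1 (SD, n = 5), 6.36 ± 1.57 in placebo (n = 6), 7.02 ± 1.39 under lenvatinib (n = 5) and 7.55 ± 0.63 under the combination (n = 5). Combination against anti-PD1 was 2.45 ± 0.78 higher (log2, SE; 95% interval 0.83 to 4.08), or 5.48-fold, and 4 of 5 combination tumours lay above every anti-PD1 tumour. That difference did not pass (limma, adjusted p = 0.26). It was 3.08 without anti-PD1 mouse 4 and 2.14 without anti-PD1 mouse 2. Lenvatinib against anti-PD1 was 1.92 ± 0.78 higher (adjusted p = 0.954).

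Il1a, the interleukin-1 stored in cells and released on damage, had arm means in the same order as Tnf. They were 5.36 ± 0.75 under anti-PD1, 5.80 ± 0.86 under lenvatinib, 5.83 ± 0.75 in placebo and 6.51 ± 0.66 under the combination (SD, n = 5, 5, 6 and 5). Combination against anti-PD1 was 1.16 ± 0.44 (log2, SE; adjusted p = 0.422) and 4 of 5 combination tumours exceeded all anti-PD1 tumours. Placebo mouse 3 held 7.26, well above the other placebo mice (5.19 to 5.85).

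Il1b, the interleukin-1 that caspase-1 matures, had no pair of arms past the test. Its means were 6.95 ± 1.17 under anti-PD1, 7.45 ± 1.29 in placebo, 7.60 ± 0.57 under the combination and 7.69 ± 1.08 under lenvatinib (SD, n = 5, 6, 5 and 5). The placebo tumours fell into a low set, mice 1, 4 and 6 at 6.12, 6.55 and 6.19, and a high set, mice 2, 3 and 5 at 8.86, 8.51 and 8.49. The low set had adipocyte scores of 2.64, 2.76 and 2.23 and dividing-cell scores of -2.13, -1.76 and -1.74. In the high set the adipocyte scores were -1.80, 0.54 and -0.90 and the dividing-cell scores 1.01, 0.23 and 1.02. Mice 4 and 6 of the low set are arrays with bright hybridization controls, mouse 1 is not, and no mouse of the high set is. The part of tissue content or of the bright arrays in the Il1b values was not tested.

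Il1rn, the antagonist, was low in 1 tumour above all. Anti-PD1 mouse 2 read 2.84, below the negative-control median, whereas anti-PD1 mice 1, 3, 4 and 5 read 6.21, 7.91, 8.10 and 8.10. Placebo tumours ran from 7.36 to 9.25, lenvatinib tumours from 7.70 to 9.78 and combination tumours from 7.94 to 9.25. The arm means were 6.63 ± 2.26 under anti-PD1, 8.31 ± 0.76 in placebo, 8.44 ± 0.81 under lenvatinib and 8.55 ± 0.64 under the combination (SD, n = 5, 6, 5 and 5). Combination against anti-PD1 was 1.91 ± 0.74 (log2, SE; adjusted p = 0.424), and 0.97 without mouse 2. Anti-PD1 against placebo was -1.68 ± 0.70 (adjusted p = 1.00), and -0.73 without that mouse.

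Il6, the cytokine that drives the acute phase response, was above the negative-control median on only 3 of 21 arrays. Those were lenvatinib mouse 2 (5.26), combination mouse 1 (4.56) and combination mouse 5 (4.22), of which the first 2 are arrays with bright hybridization controls. The remaining tumours read between 2.83 and 3.59. Values at that level are given without an order of the arms.

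Ptgs2 was highest in anti-PD1 mouse 1 (6.10) and lowest in anti-PD1 mouse 2 (3.85), so 1 arm held both ends of its range. Anti-PD1 mouse 1 is an array with bright hybridization controls, and it also had the highest Cxcl1 (5.44). The arm means of Ptgs2 lay between 4.48 ± 0.26 (combination, SD, n = 5) and 4.82 ± 0.58 (placebo, n = 6). Cxcl1 had the smallest spread within arms of the mediators, at percentile 45.7 of all probe sets, with means from 4.33 ± 0.28 (lenvatinib, n = 5) to 4.58 ± 0.22 (placebo, n = 6). Cxcl2 ran from 4.89 ± 0.55 in placebo (n = 6) to 5.35 ± 0.50 under the combination (n = 5). For these genes the moderated F test gave adjusted p = 1.00 each.

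Every pair of arms was compared, and 0 of 9 mediators passed in any of the 6 pairs or in the interaction, where 0% of all probe sets passed too. For lenvatinib against placebo, 0 of 9 mediators had an unadjusted p under 0.05, beside 6.97% of all probe sets, and 5 of 9 lay above 0 with a median of 0.10 (0.025 without the bright arrays) against -0.01 over all probe sets. For anti-PD1 against placebo, Tnf (-0.61 ± 0.29) and Il1rn did so, beside 4.07% of probe sets, and 8 of 9 mediators lay below 0 with a median of -0.48 against 0.00. Without anti-PD1 mouse 2 the count was 6 of 9 and the median -0.045, so the median rested on that tumour. That median is the value of Il6, a gene near the negative controls. Without that mouse Nos2 (-0.95), Il1rn (-0.73) and Tnf (-0.52) were still below 0, and Cxcl2 (0.35), Ptgs2 (0.20) and Cxcl1 (0.02) were above it. The Tnf difference was -0.39 without placebo mouse 3. For the combination against placebo no mediator did, beside 2.31%, and 7 of 9 lay above 0 with a median of 0.33 (0.13 without the bright arrays). Both of these medians are values of Il6. In the combination against lenvatinib none did either, beside 6.4%, with 6 of 9 above 0 and a median of 0.11.

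Combination against anti-PD1 was the pair with the most mediators at an unadjusted p under 0.05: Tnf, Nos2, Il1a and Il1rn, 4 of 9, beside 7.64% of all probe sets. The median over the 9 was 0.65, against -0.01 over all probe sets, and 7 of 9 lay above 0. Without anti-PD1 mouse 2 the median was 0.37 (the value of Il6), with 7 of 9 above 0, and Il1b was 0.16 in place of 0.65. Lenvatinib against anti-PD1 had Nos2 and Il1rn (1.80 ± 0.74), beside 4.59%, with a median of 0.51. Without that mouse Il1rn was 0.86 and the median 0.24. These pairs share arms and are not separate evidence: the anti-PD1 tumours enter 3 of the 6. Of the 9 mediators, 1 (Tnf) had groups without overlap, and only for this pair; the share of all probe sets without overlap was 0.59% for lenvatinib against placebo, 0.464% for anti-PD1 against placebo, 0.266% for the combination against placebo, 0.887% for the combination against lenvatinib and 0.441% for lenvatinib against anti-PD1.

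The interaction asks whether adding the antibody had a different effect with lenvatinib than without it. Tnf had the largest ratio of value to error among the mediators, 1.22 ± 0.42 (log2, SE; 95% interval 0.34 to 2.10), and did not pass (limma, adjusted p = 0.321). Against the placebo mean of Tnf, all 5 tumours under anti-PD1 were lower, and all 5 combination tumours lay above the lenvatinib mean. Nos2 (1.79 ± 1.08), Il1rn (1.79 ± 1.02) and Il1a (1.19 ± 0.62) had positive values as well. Without anti-PD1 mouse 2 the value of Il1rn was 0.84. Tnf alone, 1 of 9, had an unadjusted p under 0.05, beside 9.02% of all probe sets.

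**Figure D2:**
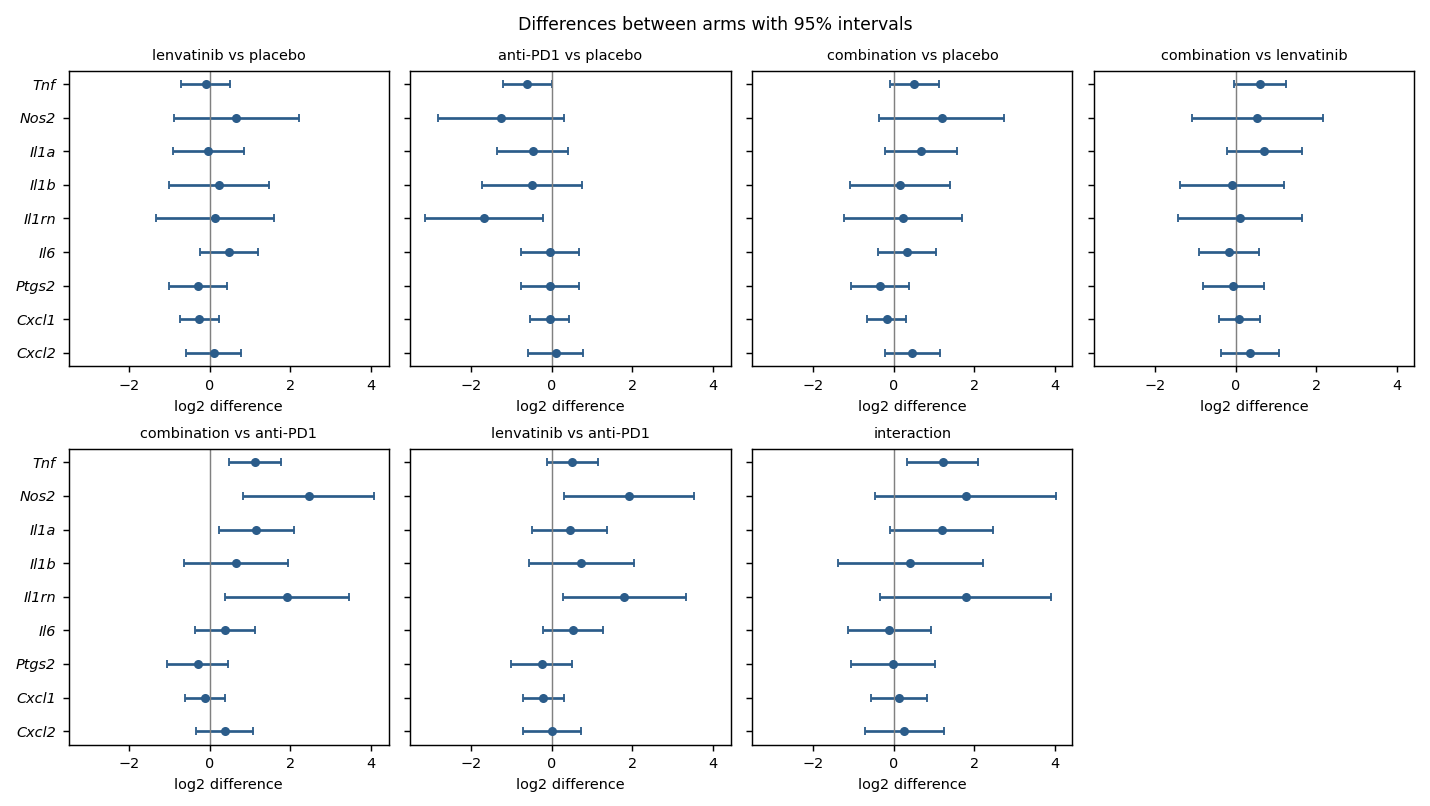
Log2 difference of each mediator for the 6 pairs of arms and the interaction (1 panel each), with 95% intervals from the fit over 21 tumours. In the combination against anti-PD1, the intervals of Tnf, Nos2, Il1a and Il1rn lie above 0 before correction, and Tnf runs from 0.48 to 1.76.

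From tumour to tumour within arms, Il1b, Cxcl2, Il1rn, Il1a, Tnf and Nos2 varied together in part. With arm means taken off, 11 of 36 pairs had a permutation p that passed after Benjamini-Hochberg adjustment over the 36 (21 tumours, Pearson r, 100000 shuffles), all positive. The shuffles crossed arms and made no allowance for the arm means taken off or for unequal spread between arms. These p-values are therefore likely too small, and pairs close to the threshold are uncertain. The share of passing pairs among other genes was not computed, so this count cannot show that the mediators vary together more than other genes do. Il1b with Cxcl2 was the tightest (r = 0.88, Spearman rho = 0.83, permutation adjusted p = 0.00018 for r and 0.00048 for rho). Its unadjusted p for r, 1e-05, is the smallest the shuffles can give. It held at 0.83 without the 2 tumours farthest in Il1b (lenvatinib mouse 5 and anti-PD1 mouse 2), and at 0.88 on the 15 arrays without bright controls. Il1b with its antagonist Il1rn gave r = 0.79 (rho = 0.81, permutation adjusted p = 0.00018).

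A second set of pairs linked Tnf with Il1a (r = 0.76, rho = 0.68, permutation adjusted p = 0.00054) and with Nos2 (r = 0.71, rho = 0.65, permutation adjusted p = 0.00216). Il1a joined both sets, with r = 0.73 to Il1rn, 0.66 to Il1b, 0.60 to Cxcl2 and 0.58 to Nos2, of which the last did not pass by rho (adjusted p = 0.150). Il1rn with Cxcl2 (0.70), Nos2 with Il1rn (0.57) and Nos2 with Il1b (0.53) complete the 11, and Nos2 with Il1b did not pass by rho either (permutation adjusted p = 0.0599). Tnf with Il1b (r = 0.47, adjusted p = 0.078) did not pass.

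Cxcl1 and Cxcl2, adjacent genes whose products share the receptor Cxcr2, showed r = 0.03 (rho = -0.03, permutation adjusted p = 0.937). Cxcl1, Il6 and Ptgs2 were in no pair that passed. Ptgs2 with Tnf reached r = 0.50 (permutation adjusted p = 0.066). On the 15 arrays without bright controls, Ptgs2 had r = 0.80 with Tnf, 0.81 with Nos2 and 0.76 with Il1a. Its r there was 0.66 with Il1b, 0.63 with Il1rn, 0.48 with Il6, 0.37 with Cxcl2 and -0.25 with Cxcl1. Cxcl1 ran only from 3.85 to 5.44 over all tumours, near the negative-control median of 4.10. Without lenvatinib mouse 5, 7 of the 36 pairs passed, without anti-PD1 mouse 1, 16 did, and without the bright arrays, 13 did.

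**Figure D3:**
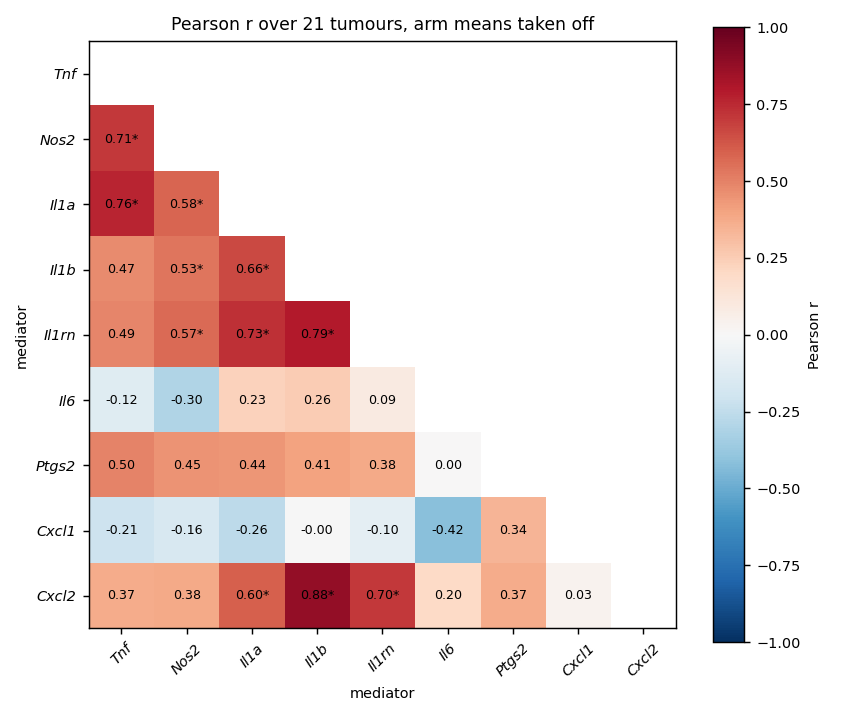
Pearson r between every pair of mediators over 21 tumours, with arm means taken off. Asterisks mark the 11 pairs past an adjusted p of 0.05; the highest is Il1b with Cxcl2 at 0.88, and Cxcl1 has none.

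**Figure D4:**
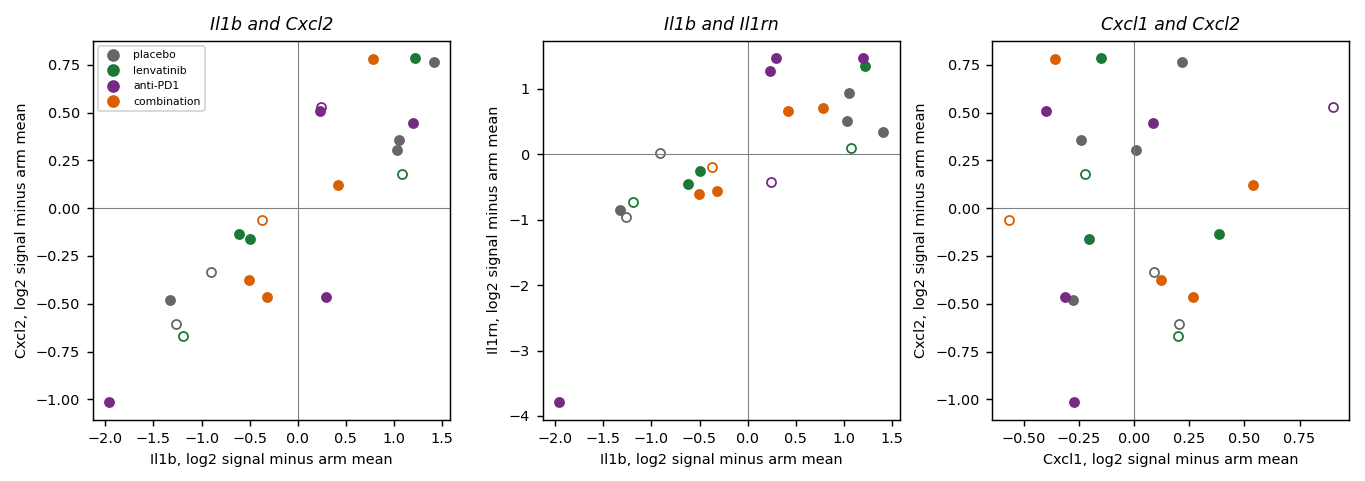
Log2 signal minus arm mean for Il1b with Cxcl2, Il1b with Il1rn, and Cxcl1 with Cxcl2, 1 point per tumour coloured by arm, open for bright hybridization controls. The first 2 panels rise (r = 0.88 and 0.79) and the third does not (r = 0.03).

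Marker lists of the cell types a tumour piece can hold were scored in each tumour. The macrophage score (11 of 12 markers measured) averaged 0.42 ± 0.45 in placebo, -0.37 ± 0.70 under lenvatinib, -0.76 ± 0.72 under anti-PD1 and 0.63 ± 0.87 under the combination (SD, n = 6, 5, 5 and 5), and the mean log2 level of the list ran from 7.64 to 9.53 in the anti-PD1 tumours and from 8.39 to 10.54 in the combination tumours. The monocyte score (4 of 5 measured) was 0.25, 0.01, -0.98 and 0.66 in the same order, and the T cell score (7 of 7) 0.26, -0.33, -0.96 and 0.97. No marker of these 3 lists had an arm mean below the negative-control median. Scores of all 3 lists were thus lowest in the arm where Tnf, Nos2, Il1a and Il1rn were lowest and highest where these were highest. Dendritic, NK and B cell scores had the same lowest and highest arms, and none of the other lists had both. The neutrophil score was lowest under lenvatinib (-0.24), with -0.10 under anti-PD1. Among the monocyte markers, Chil3 differed most between anti-PD1 (5.71) and combination (9.36) and Plac8 least (9.90 and 10.35). The part of cell content in the mediator values was not tested.

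Single tumours, picked by their Nos2 values, stood apart from their arm in the monocyte score too. Anti-PD1 mouse 4, with Nos2 at 7.59, had a monocyte score of 0.89 and a macrophage score of 0.44, while the other 4 anti-PD1 tumours had monocyte scores from -1.94 to -0.93. Combination mouse 1, the lowest of its arm for Nos2, had a monocyte score of -0.85, and its 4 companions had 0.82 to 1.25. That tumour is an array with bright hybridization controls. The part of cell content or of the bright arrays in these values was not tested.

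Over 135 pairs of a mediator and a marker score (arm means taken off), 21 passed, 18 of them positive. Their permutation p-values came from the same kind of shuffles across arms and are likely too small as well. The share among other genes was not computed for these pairs either. Nos2 followed the monocyte score most closely (r = 0.81, rho = 0.79, permutation adjusted p = 0.0027, and 0.79 without the 2 farthest tumours). Cxcl2 (r = 0.69, rho = 0.70, permutation adjusted p = 0.023), Il1b (0.64), Ptgs2 (0.61) and Il1rn (0.59) followed the neutrophil score, of which 10 of 11 markers were measured. By rho the neutrophil pairs of Ptgs2 and Il1rn did not pass (permutation adjusted p = 0.105 and 0.195). Il1b had r values as high with the hepatocyte lineage (0.64) and dividing-cell (0.61) scores, and Il1rn likewise (0.61 and 0.60), and these 4 did not pass by rho. In the neutrophil list the granule genes Ngp, Ltf and Mmp8 had a mean below the negative-control median in at least 1 arm. Its markers did not move as one: in anti-PD1 against placebo, 3 lay above 0 (Camp, Ltf and Ngp) and 7 below. Tnf, Nos2, Il1a and Il1rn followed the T cell score (0.64, 0.66, 0.67 and 0.66). Il1b and Cxcl2 ran against the adipocyte score (-0.65 each), as did Il1rn (-0.56). The count of passes rests on single tumours: it was 1 without anti-PD1 mouse 2, 6 without lenvatinib mouse 5, 11 without placebo mouse 1 and 13 without placebo mouse 2.

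**Figure D5:**
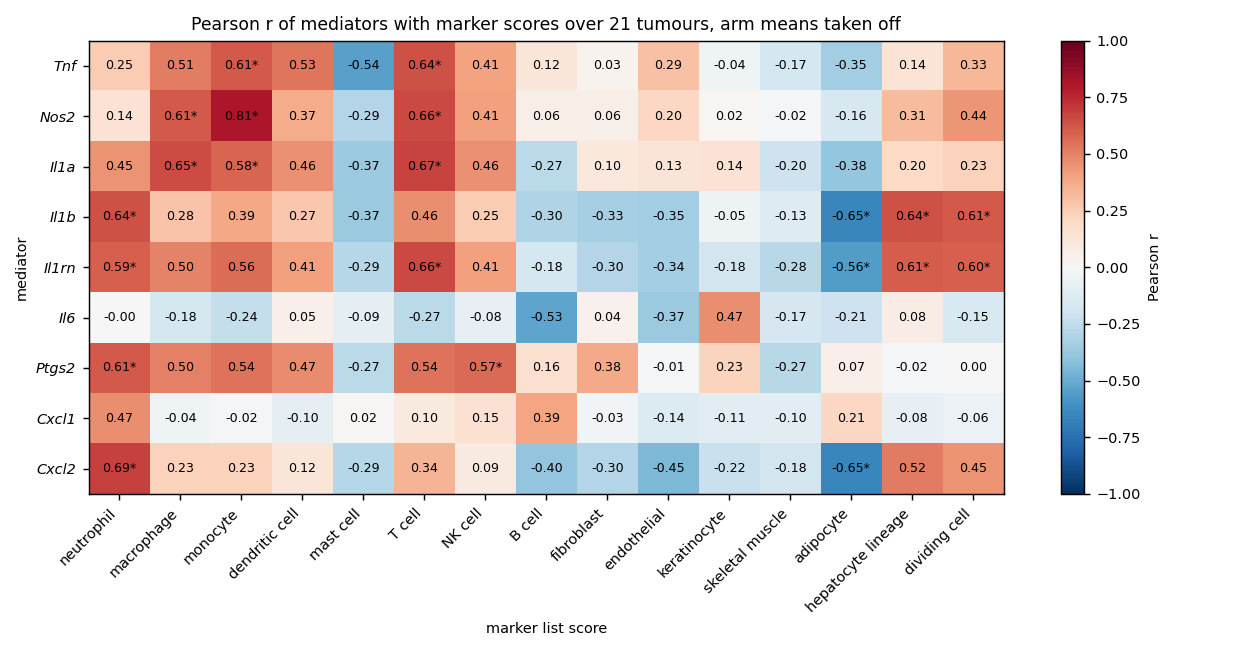
Pearson r of each mediator (vertical) with the scores of 15 marker lists (horizontal) over 21 tumours, arm means taken off. Asterisks mark the 21 pairs past an adjusted p of 0.05; the highest is Nos2 with the monocyte score at 0.81.

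By a rule on likeness alone, the 3 named probe sets with the highest r to each mediator among 19563 are given as a description over 21 tumours, with no p. Nos2 was closest to Olr1, a scavenger receptor (r = 0.92), Tapbp (0.91) and Dcstamp (0.91). Il1b was closest to Clec4n, a myeloid lectin receptor (0.88), the chemokine Ccl3 (0.86) and Gpc1 (0.85). Il1rn was closest to the Fc receptor Fcgr4 (0.93), Slamf8 (0.89) and Cxcl16 (0.89), and Il1a to Cd72 (0.88), Tifab (0.85) and H2-DMa (0.85). Cxcl2 was closest to Tmem144 (0.86), Meaf6 (0.85) and Gpc1 (0.85), Tnf to Klra6 (0.85), Zc3hav1 (0.83) and 9930111J21Rik2 (0.82), Ptgs2 to Cracr2a (0.80), Actl7b (0.77) and Runx3 (0.76), and Cxcl1 to Asic2 (0.80), Hrh1 (0.77) and Myh15 (0.76). For Il6, which lay near the negative controls, the closest were Gm11559 (0.90), Olfr874 (0.89) and S100a3 (0.88). Over all these pairs rho ran from 0.66 (Ptgs2 with Runx3) to 0.93 (Cxcl2 with Meaf6). The ranking was not repeated without single tumours, such as anti-PD1 mouse 2 with its low Il1rn.

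The receptors of the mediators were 13 genes, all measured, and none passed in any comparison. Combination against anti-PD1 had 12 of 13 above 0 with a median of 0.23, against -0.01 over all probe sets, and without the bright arrays it had 11 of 13 and a median of 0.38. The largest were the prostaglandin receptors Ptger2 (1.87 ± 0.54, log2, SE; adjusted p = 0.199) and Ptger4 (0.72 ± 0.33, adjusted p = 0.617) and the Tnf receptor Tnfrsf1b (1.03 ± 0.32, adjusted p = 0.251). Tnfrsf1a, the other Tnf receptor, differed by 0.07 ± 0.24. The interleukin-1 receptor Il1r1 and its decoy Il1r2 differed by 0.19 ± 0.34 and 0.23 ± 0.28, and the co-receptor Il1rap by 0.01 ± 0.39. Il6ra and Il6st, the receptor chains of Il6, differed by 0.57 ± 0.31 and 0.08 ± 0.39, and the chemokine receptors Cxcr1 and Cxcr2 by 0.18 ± 0.18 and 0.36 ± 0.36. Ptger1 differed by 0.48 ± 0.24 and Ptger3 by -0.68 ± 0.53, the only one below 0.

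Around the mediators, 9 pathway lists were followed, and 0 of their genes passed in any comparison. The processing and signalling list of TNF had 11 of 11 measured genes above 0 in the combination against anti-PD1, with a median of 0.68, and 0 of 11 above 0 in anti-PD1 against placebo, with a median of -0.42. Without anti-PD1 mouse 2 the counts were 10 and 2 of 11, and without the bright arrays 9 and 1 of 11, with a median of -0.24 in the second comparison. These counts share the anti-PD1 tumours. Its member Tnfaip3, an inhibitor of NF-κB signalling, read 7.41 ± 0.29 in placebo, 7.35 ± 0.62 under lenvatinib, 5.92 ± 1.51 under anti-PD1 and 8.17 ± 0.97 under the combination (SD, n = 6, 5, 5 and 5). The difference between the last 2 was 2.25 ± 0.54 (log2, SE; adjusted p = 0.14). Traf1, an adaptor of Tnf receptors, differed by 0.68 ± 0.39.

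The interleukin-1 processing list had 13 of 16 genes above 0 in the combination against anti-PD1, with a median of 0.26. Pycard, the adaptor of the inflammasome that matures Il1b, differed by 1.57 ± 0.37 (limma, adjusted p = 0.135), and the sensor Nlrp3 by 1.10 ± 0.35 (adjusted p = 0.258). The interaction for Pycard was 2.39 ± 0.51 (adjusted p = 0.151). Il18r1, the receptor of interleukin-18, differed by 1.14 ± 0.47. Myeloid activation genes had 16 of 17 above 0, with a median of 0.63, led by the acute phase protein Saa3 (1.92 ± 0.57, adjusted p = 0.215) and the lectin receptor Clec4e (1.35 ± 0.39, adjusted p = 0.205). Cd14, the co-receptor of endotoxin, differed by 0.31 ± 0.29.

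The prostanoid list had 10 of 15 above 0 with a median of 0.33, and its thromboxane synthase Tbxas1 differed by 1.51 ± 0.44 (adjusted p = 0.212) beside Ptgs2 itself at -0.31 ± 0.36. The nitric oxide and arginine list had 5 of 9 above 0 with a median of 0.03. In it Nos3, the endothelial synthase, differed by -0.83 ± 0.24 (adjusted p = 0.204), opposite in sign to Nos2, and Arg2 by -0.79 ± 0.38 and Ddah2 by -0.11 ± 0.44. The neutrophil-attracting chemokines and their receptors had 3 of 10 above 0 with a median of -0.06, and Cxcl15 was lowest at -1.66 ± 0.44 (adjusted p = 0.17), with Ppbp at -0.67 ± 0.25 and Pf4 at 0.30 ± 0.40.

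The IL-6 family list had 7 of 11 above 0 with a median of 0.06, in which Socs3, a feedback inhibitor of Il6 signalling, differed by 0.06 ± 0.23, Lif by -0.08 ± 0.25 and Lifr by -0.49 ± 0.51. The NF-κB list had 9 of 11 above 0 with a median of 0.22, in which Rel differed by 1.15 ± 0.52, Relb by 0.35 ± 0.24 and the inhibitor Nfkbia by 0.44 ± 0.21. Acute phase genes of liver cells, which Il6 is known to drive, had 5 of 14 above 0 with a median of -0.24, with Hp at -0.72 ± 0.74, Fga at -0.37 ± 0.27 and Saa2 at 0.12 ± 0.16. In each of these lists the median over all probe sets was -0.01. Without anti-PD1 mouse 2 the medians that moved by over 1.5 times were those of the prostanoid list (0.50), the nitric oxide list (0.061) and the neutrophil-attracting chemokines (-0.21). Without the bright arrays they were those of the interleukin-1 list (0.42), the IL-6 family (-0.21), the NF-κB list (0.14), the acute phase genes (0.032), the nitric oxide list (0.28) and the chemokines (-0.12).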

How the data were processed

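The deposited values are log2 signals per probe set, made by the authors with RMA and oligo per the submitters' processing notes. RMA normalizes across arrays, so levels are relative, and a shift common to most of the genes would not show. Not given in the sources used here are their versions, the genome build and the annotation. Mice were placed in arms from their titles. Each mouse is a separate animal, and the p-values rest on the spread among them. Of 29129 array entries, 6923 were controls and were dropped, and 22206 were tested as probe sets, of which 19572 have 1 gene symbol and 2634 are unnamed here. No filter was applied to dim probe sets.

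The fit was limma 3.58.1 (statmod 1.5.0, R 4.3.3), lmFit and eBayes on 4 arm means over all 21 arrays, with 7 two-sided contrasts and a moderated F test, Benjamini-Hochberg adjusted within each. It was tested on simulated data. Correlations used 100000 shuffles in Python 3.11.15. The text names all 9 mediators, their 13 receptors, the 3 genes of each pathway list with the smallest F test p, and the 3 probe sets most like each mediator. The mediators and lists were chosen with earlier results of these data known. For 15 of the listed genes no named probe set was matched. The alternatives were a signal filter, other eBayes settings, cyclic loess, array weights, only the 2 arms compared, a replicate block, the hybridization controls as covariate or bright arrays left out, an adjusted p under 0.1, arm means kept, Spearman rho, and each mouse left out. Promoters are RefSeq sequences of GRCm38.p6.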

Additional observations from a re-analysis of the deposited data

Results flagged for a closer look

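Of 36 sets of mice (9 mediators in 4 arms), 3 held a tumour far from the rest of its arm by Dixon's test at the 95% level, which by chance marks about 1 set in 20. The share over all probe sets was not computed, so the 3 are not read as more than chance would mark. Nos2 in combination mouse 1 read 6.44, under the 7.71 to 8.004 of the other 4. Il1a in placebo mouse 3 read 7.26, above the 5.19 to 5.85 of the other 5. Il6 in lenvatinib mouse 2 read 5.26, above the 3.02 to 3.59 of the other 4. Combination mouse 1 and lenvatinib mouse 2 are arrays with bright hybridization controls, and the part of that in these values was not tested.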

How the results depend on the processing

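No mediator passed under any alternative run in any comparison. The smallest adjusted p of any mediator was 0.0599, for Tnf in the combination against anti-PD1 with the hybridization control as a covariate; over the alternatives that p ran up to 0.484 and the difference from 0.94 to 1.27. Of 1797 alternative values for 63 differences, 1699 kept their direction and 98 changed sign, in 24 differences that were at most 0.41 in size. Counts of probe sets past the threshold moved from 0 with array weights to 707 (combination against lenvatinib), 504 (combination against anti-PD1), 1691 (interaction) and 142 (4 arms), and without the 6 bright arrays to 233 (combination against anti-PD1). Without 1 mouse at a time they ran from 0 to 1, 0 to 338 and 0 to 320 for the first 3 of these, being 338 and 320 without combination mouse 1, 87 and 7 without anti-PD1 mouse 4, and 81 in the interaction without lenvatinib mouse 5. The cause of these moves was not tested. Marker pairs past the threshold numbered 13 by Spearman rho, and 1 to 26 without 1 mouse, while mediator pairs numbered 7 to 16. The filter at the 40th percentile of signal removed Il6, Ptgs2 and Cxcl1, so it gives no value for them. Whether mouse numbers pair the tumours was not tested. Deviations of same-numbered mice correlated at a median of 0.10 (30 pairs, -0.63 to 0.56, 15 of them above 0.1). For other numbers the median was -0.04 (135 pairs, 48 of them above 0.1). A replicate block gave 0 probe sets and 0 mediators past the threshold in every comparison. The fit without it gave 0 as well, so these counts cannot speak to pairing. With cyclic loess normalization sign changes were Il1a 0.018 (lenvatinib against placebo). With array weights sign changes were Il1b -0.22, Il1rn -0.076 (lenvatinib against placebo), Il1b -0.11, Cxcl1 0.0089 (combination against placebo), Il1b 0.11, Il6 0.053 (combination against lenvatinib), Cxcl1 0.18 (combination against anti-PD1), Ptgs2 0.016, Cxcl2 -0.082 (lenvatinib against anti-PD1), Il6 0.074, Ptgs2 0.26 (the interaction). With the mouse number as a replicate block sign changes were Il1b -0.017, Il1rn -0.0696, Cxcl2 -0.024 (lenvatinib against placebo), Ptgs2 0.055, Cxcl2 -0.025 (anti-PD1 against placebo), Il1b -0.10 (combination against placebo). Without the 6 bright arrays sign changes were Il1a 0.077, Il1b -0.27 (lenvatinib against placebo), Il6 0.015, Cxcl2 -0.27 (anti-PD1 against placebo), Il1b -0.30, Cxcl1 0.049 (combination against placebo), Il1rn -0.051, Il6 0.076 (combination against lenvatinib), Ptgs2 0.10, Cxcl1 0.25 (combination against anti-PD1), Ptgs2 0.24, Cxcl1 0.026 (lenvatinib against anti-PD1), Il6 0.061, Ptgs2 0.21 (the interaction). With the hybridization control as a covariate sign changes were Il6 0.012 (anti-PD1 against placebo). Without 1 mouse at a time, the remaining sign changes were within these ranges. For lenvatinib against placebo they ran over Tnf -0.30 to 0.12, Il1a -0.35 to 0.25, Il1b -0.0705 to 0.53, Il1rn -0.21 to 0.31, Cxcl2 -0.10 to 0.27. For anti-PD1 against placebo they ran over Il6 -0.12 to 0.022, Ptgs2 -0.36 to 0.20, Cxcl1 -0.27 to 0.053, Cxcl2 -0.036 to 0.35. For combination against placebo they ran over Il1b -0.12 to 0.43. For combination against lenvatinib they ran over Il1b -0.38 to 0.22, Il1rn -0.074 to 0.45, Il6 -0.41 to 0.23, Ptgs2 -0.16 to 0.14, Cxcl1 -0.046 to 0.23. For combination against anti-PD1 they ran over Ptgs2 -0.54 to 0.022, Cxcl1 -0.25 to 0.11. For lenvatinib against anti-PD1 they ran over Ptgs2 -0.48 to 0.079, Cxcl1 -0.31 to 0.017, Cxcl2 -0.25 to 0.17. For the interaction they ran over Il1b -0.078 to 0.72, Il6 -0.37 to 0.28, Ptgs2 -0.26 to 0.31. The number of arrays limits the precision, and Il6 and Cxcl1 are limited by signals near the negative controls. Tnf, Il1a, Ptgs2 and Cxcl2 also had signals inside the spread of those controls.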
